A study of Mus musculus with 5 samples.

Results

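Of the 23337 genes in a table of transcript levels of mouse embryonic fibroblasts, 10 are the alpha- and beta-tubulin genes described here, chosen by symbol: the alpha isotypes Tuba1a, Tuba1b, Tuba1c and Tuba4a and the beta isotypes Tubb2a, Tubb2b, Tubb3, Tubb4b, Tubb5 and Tubb6. All 10 were present and all 10 passed the filter on low values. The fibroblasts, of strain 129Sv, had been immortalized with the SV40 T antigen, which inactivates p53 and the retinoblastoma protein, so that controls and knockouts both carry it. Poly-T selected RNA was sequenced in 3 libraries labelled wild type (WT) for SIRT3, a mitochondrial deacetylase, and 2 labelled SIRT3 -/- (KO), all grown under normal conditions. The labels do not tell separate cultures or lines apart within a genotype. The p-values therefore reflect library-to-library spread alone, possibly only technical, and an effect of genotype cannot be told apart from one of the line.

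Microtubules are hollow polymers of dimers of alpha- and beta-tubulin, and mammals encode each subunit in several genes, the isotypes, whose products mix in the same polymer. Isotypes are nearly identical over their body and differ mainly in the acidic carboxy-terminal tail, the surface read by motors and microtubule-associated proteins. Dividing cells make mostly Tubb5 and Tubb4b with Tuba1b and Tuba1c. Tuba1a, Tubb2a, Tubb2b and Tubb3 are best known from developing neurons, Tuba4a and Tubb6 from other differentiated tissues.

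Values are normalized read counts, in which a size factor has been divided out of each library, and RPKM, in which reads are scaled to the length of the gene model and the library total. RPKM alone serves to compare genes. Totals came to between 33473103 and 41758681 reads per library, and the isotypes had between 492 and 102904 reads each in a library. Sirt3 itself was detected in all libraries, at 169.7, 149.4 and 118.4 normalized read counts in WT and 200.4 and 216.8 in KO, higher in the libraries labelled KO (limma, log2 fold change 0.53, adjusted p = 0.0044). These totals per gene do not show whether a deleted exon is missing, so every direction below is between libraries as labelled. Of 12 fibroblast markers 10 were tested, with Col1a1, Col1a2 and Vim among them and Lum and Fap below the filter. Of these 10, 2 were higher and 7 lower in KO, where 65.3% of all genes tested were called, 32.6% in each direction. The 2 higher were Col1a1, at a log2 fold change of 0.38, and Col1a2, at 0.58. The Col1a2 call was lost once the median change of neighbouring genes was subtracted (limma, adjusted p = 0.383). Vim, at -0.38, was among the 7 lower. Pdgfra, a receptor often used to mark fibroblasts and named here after its value was seen, went from 20013 ± 229 to 1255 ± 98.6 (SD, n = 3 and 2). The summed normalized read counts of the marker lists for glia, epithelium, endothelium, muscle, and macrophages and blood were at or under 232 in each library. Except for macrophages and blood, whose groups overlapped, these low sums were higher in KO. For endothelium they ran from 26.7 to 37.0 in WT and from 77.8 to 81.5 in KO. For muscle they ran from 40.7 to 42.5 and from 150.1 to 171.8. For epithelium they ran from 14.1 to 15.8 and from 35.2 to 37.8, for glia from 141.5 to 205.8 and from 224.6 to 232.

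The carboxy-terminal tail is encoded at the end of the coding sequence. The last coding bases, stop codon included, are shown for the alpha isotypes Tuba1c and Tuba4a, whose last codons differ in kind. They come from the principal GENCODE M21 transcript (GRCm38, the assembly mm10 also names), 5′ to 3′ in the sense of the transcript, with the last codon before the stop in capitals.
Tuba1c: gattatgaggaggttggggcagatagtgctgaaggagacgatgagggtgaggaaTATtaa
Tuba4a: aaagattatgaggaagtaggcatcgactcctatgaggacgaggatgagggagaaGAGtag
Tuba1c ends in a codon for tyrosine (TAT), the residue that vasohibins remove from polymerized tubulin and that tubulin tyrosine ligase puts back. Tuba4a ends in GAG, so its product is made without that residue. The coding sequence was 98.3% identical between Tuba1a and Tuba1b and 97.1% between Tuba1a and Tuba1c, but 84.7% between Tuba1a and Tuba4a.

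The same stretch is shown for 5 of the 6 beta isotypes, again with the last codon in capitals. Tubb2a and Tubb2b differ in it by few bases and encode the same residues there, while the other tails differ more.
Tubb5: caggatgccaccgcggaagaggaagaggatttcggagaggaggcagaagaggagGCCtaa
Tubb4b: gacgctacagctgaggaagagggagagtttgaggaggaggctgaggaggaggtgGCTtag
Tubb2a: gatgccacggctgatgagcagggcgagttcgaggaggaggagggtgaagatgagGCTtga
Tubb2b: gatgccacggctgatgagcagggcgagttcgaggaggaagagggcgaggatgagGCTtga
Tubb3: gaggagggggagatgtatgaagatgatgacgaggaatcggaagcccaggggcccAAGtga
Tubb3 ends in AAG, a lysine codon, where the others shown end in a codon for alanine (GCC or GCT). Tubb2a and Tubb2b were 96.5% identical over the coding sequence, and all other pairs of beta isotypes lay between 80.2% and 85.7%.

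Near identity bears on counting. Of the 50-base stretches of the principal transcript, 75.5% in Tuba1a, 83.1% in Tuba1b and 61.0% in Tuba1c also occurred in an annotated transcript of another gene, pseudogenes included. For Tubb4b, Tubb2a and Tubb2b the shares were 55.5%, 49.6% and 39.3%, with Tubb2a and Tubb2b sharing mostly with each other. In Tuba4a 48.8% of stretches were shared, almost all with Stk16, a kinase gene on the opposite strand whose end overlaps the end of Tuba4a. Tubb5, Tubb3 and Tubb6 were free of such sharing, at 0.115% for Tubb5 and 0% for both others. The library kit, Nextera XT, does not mark strand, and neither read length nor the treatment of reads with several matches is known from the sources used here. The split among Tuba1a, Tuba1b and Tuba1c, between Tubb2a and Tubb2b and between Tuba4a and Stk16 is therefore uncertain.

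In KO, 7 of the 10 isotypes had risen and 2 had fallen, and Tubb4b alone did not pass (limma, two-sided, threshold of 0.05 on the p adjusted by Benjamini-Hochberg over 13062 genes). Tubb2a and Tuba1a rose most, about 2-fold, followed by Tubb2b, Tubb5, Tuba1b, Tubb6 and Tuba1c, while Tuba4a and Tubb3 fell. Calls were common in this comparison: 65.3% of all genes tested passed, 32.6% higher and 32.6% lower. In the authors' deposited table the same 7 and 2 isotypes passed, where 25.7% of genes were higher and 24.8% lower. With the local shift removed, that is, with the median change of neighbouring genes subtracted, 8 were higher and 2 lower, where 29.9% of all genes were higher and 29.8% lower. The median log2 fold change was 0.32 over the isotypes and -0.0023 over all genes tested. The WT and KO libraries did not overlap for any of the 10 isotypes, as for 75.4% of all genes tested. Fewer cells of a kind and less RNA per cell cannot be told apart in these bulk samples.

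**Figure D1:**
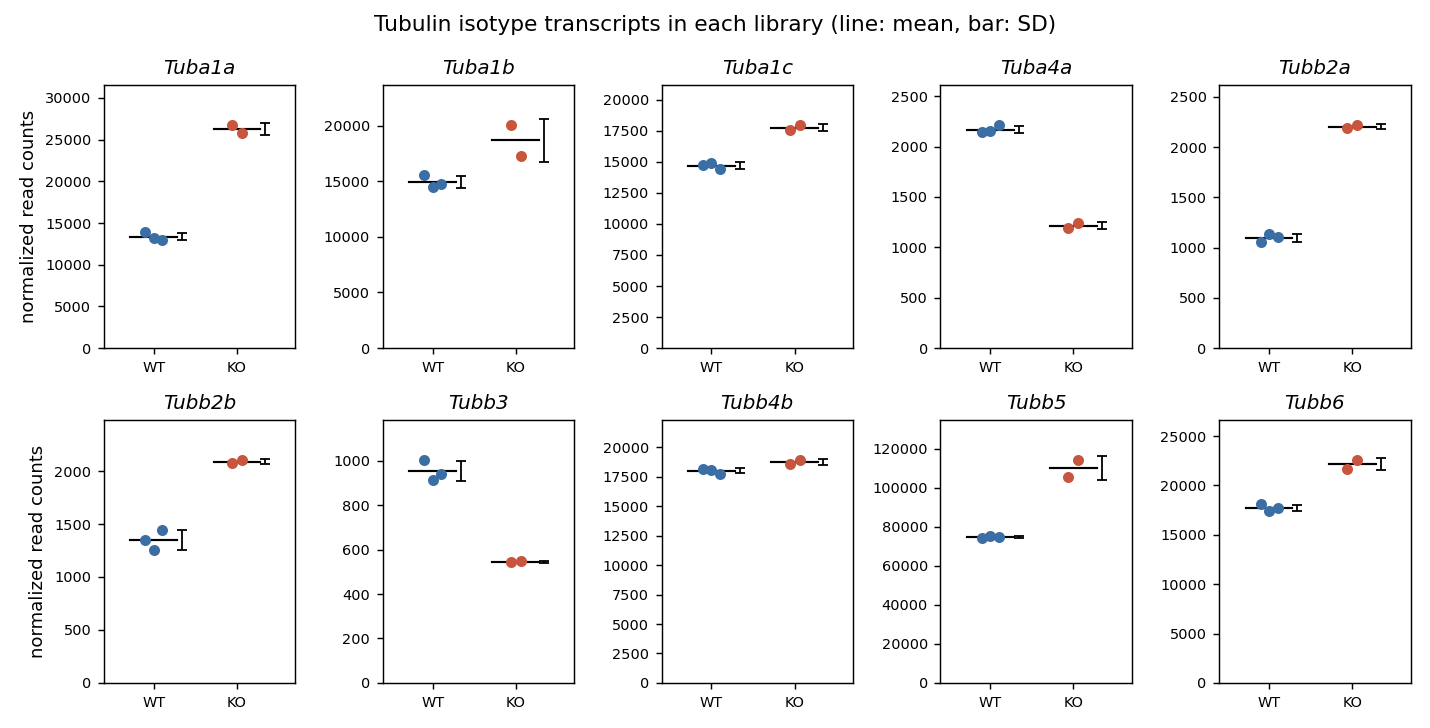
Normalized read counts (vertical axes, from 0, a scale per gene) of the 10 tubulin isotypes in the 3 WT libraries (blue) and the 2 KO libraries (red), with the mean as a line and the SD as a bar. Tuba4a and Tubb3 lie lower in KO, Tubb4b is nearly level, and the other 7 lie higher.

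Among the alpha isotypes, Tuba1a (chromosome 15, 98949837 to 98953703, minus strand) had the largest difference. WT replicates 1 to 3 held 13875, 13256 and 12977 normalized read counts, against 26745 and 25766 for KO replicates 1 and 2. Both KO libraries thus stood far above the WT libraries, with means of 13369 ± 459 (SD, n = 3) and 26255 ± 692 (SD, n = 2). The log2 fold change was 0.97 (standard error 0.039, limma, adjusted p = 2.6e-15), a 1.96-fold difference. Tuba1a is the main alpha isotype of young neurons.

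Tuba1b and Tuba1c, the alpha isotypes of most dividing cells, lie in the same cluster on chromosome 15 (98931425 to 98934565 and 99029891 to 99038110) and rose much less. Tuba1b was at 15578, 14472 and 14731 in WT and at 20048 and 17307 in KO. The KO libraries were both above WT but stood apart from each other, KO replicate 1 being 1.16-fold above KO replicate 2. The log2 fold change of Tuba1b was 0.32 (standard error 0.049, limma, adjusted p = 6.8e-06), and it was 0.21 without KO replicate 1 and 0.43 without KO replicate 2, called in both cases. Tuba1c was tight, at 14775, 14898 and 14405 in WT and 17567 and 17958 in KO. Its log2 fold change was 0.27 (standard error 0.036, limma, adjusted p = 9.5e-07).

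Tuba4a, the alpha isotype whose coding sequence lacks the final tyrosine codon, went the other way. It lies on chromosome 1 from 75214228 to 75219865 (minus strand). The WT libraries held 2141, 2154 and 2214 normalized read counts and the KO libraries 1194 and 1239, with no overlap. The log2 fold change was -0.83 (standard error 0.050, limma, adjusted p = 3.7e-12), a level 1.78-fold higher in WT. Stk16, the gene that overlaps its end by 635 bp in RefSeq, differed less, at 2840, 2933 and 3031 in WT and 2558 and 2489 in KO (log2 fold change -0.22, limma adjusted p = 2.6e-04). Its part in the Tuba4a value was not tested.

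Of the beta isotypes, Tubb5 (chromosome 17, 35833921 to 35838306, minus strand), the main beta-tubulin gene of dividing cells, was by far the most abundant. It held 74229, 75163 and 74752 normalized read counts in WT and 105657 and 114432 in KO. WT libraries agreed to within a coefficient of variation of 0.627%, whereas the KO libraries differed by 1.08-fold, KO replicate 2 being the higher. The log2 fold change was 0.56 (standard error 0.043, limma, adjusted p = 2.1e-10), a 1.47-fold difference. Neighbouring genes were raised too: the median log2 fold change of 141 other tested genes within 5 Mb was 0.26, and with that shift removed Tubb5 was at 0.30, still called.

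Tubb4b (chromosome 2, 25222160 to 25224702, minus strand), the other widely expressed beta isotype, was nearly level. It was at 18187, 18060 and 17764 in WT and 18568 and 18948 in KO, so that the KO libraries were above WT by a small margin. The log2 fold change of 0.059 had a 95% interval from -0.015 to 0.13 (limma, adjusted p = 0.153). With the local shift removed, which was -0.095 here, it became 0.15 and was called (limma, adjusted p = 8.6e-04). That call is relative to its neighbours and is not one between KO and WT levels.

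Tubb6 (chromosome 18, 67390717 to 67402749), a divergent isotype found at high levels in cultured fibroblasts, was at 18101, 17464 and 17674 in WT and 21716 and 22599 in KO. The groups were separate, and the log2 fold change was 0.32 (standard error 0.037, limma, adjusted p = 1.3e-07). It was 0.21 with the local shift removed, and still called.

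Tubb2a and Tubb2b are neighbours on chromosome 13 (34074274 to 34078007 and 34126748 to 34130466), and both rose. Tubb2a went from 1058, 1133 and 1101 in WT to 2188 and 2219 in KO. Its log2 fold change was 1.01 (standard error 0.054, limma, adjusted p = 5.2e-13). Tubb2b was at 1352, 1252 and 1442 in WT, a spread of 7.04% as coefficient of variation, and at 2074 and 2106 in KO. Its log2 fold change was 0.63 (standard error 0.058, limma, adjusted p = 3.8e-09). In RPKM the ratio of Tubb2a to Tubb2b was 0.937, 1.08 and 0.914 in WT and 1.26 in each KO library, without overlap (exact permutation test, two-sided, p = 0.1, the smallest that 3 against 2 libraries allow), a ratio that rests on the uncertain split of reads between these genes.

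Tubb3 (chromosome 8, 123411424 to 123422015), whose protein is the usual marker of neuronal microtubules, fell. It was at 1005, 916.0 and 939.9 normalized read counts in WT and 542.9 and 547.1 in KO. The KO libraries differed from each other by far less than from WT. The log2 fold change was -0.80 (standard error 0.070, limma, adjusted p = 1.5e-09), a level 1.75-fold higher in WT. Tubb3 transcripts share no stretch of 50 bases with another gene, although an annotated read-through gene spans the locus without sharing exonic bases.

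**Figure D2:**
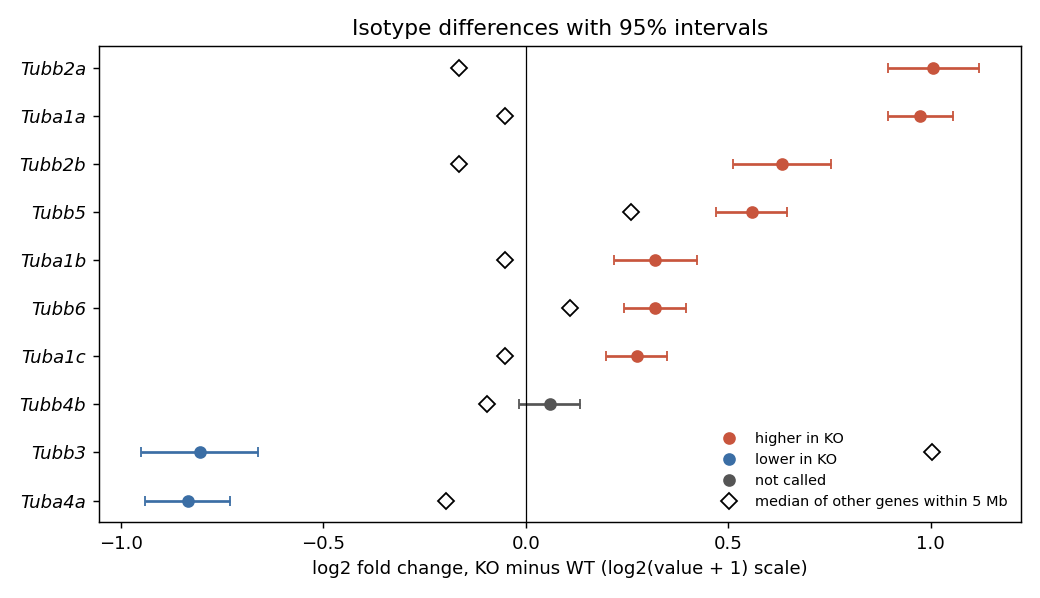
Log2 fold change between KO and WT (horizontal axis) of each isotype with its 95% interval, red where called higher, blue where called lower and grey where not called; open diamonds are the median of the other tested genes within 5 Mb. Tubb3 is at -0.80 where its surroundings are at 1.00.

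The fall of Tubb3 stood against its surroundings. Of 90 other genes tested within 5 Mb of its start, 84 were called higher and 2 lower in KO, with a median log2 fold change of 1.00. The genes next to it, named after their values were seen, rose on both sides: Tcf25, a transcription factor gene, had a log2 fold change of 1.11 and Def8 had 0.65. Only Cbfa2t3, a corepressor gene, fell more than Tubb3 in that window, and Cotl1, an actin-binding protein gene, was the other one called lower. With the local median subtracted, Tubb3 was at -1.81 (limma, adjusted p = 1.6e-14). The other isotypes lay among genes with smaller shifts, with local medians between -0.20 and 0.26. Around Tuba1a, 31 of 123 genes were higher and 42 lower, and the gene beside the cluster, Prph, for the neuronal intermediate filament peripherin, also named after its value was seen, rose from 10.3 to 38.7 mean normalized read counts.

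**Figure D3:**
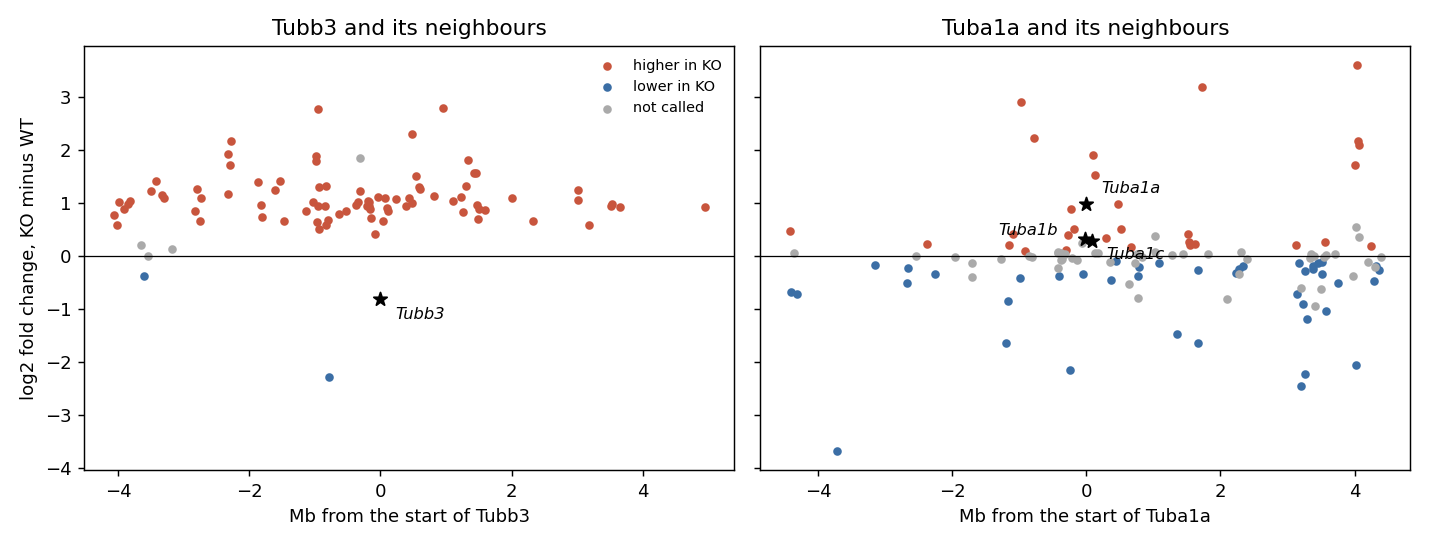
Log2 fold change (vertical axis) of tested genes by distance in Mb from the start of Tubb3 (left) and Tuba1a (right), with isotypes as black stars, genes called higher in red, lower in blue and not called in grey. Of 90 neighbours of Tubb3, 84 are higher, and Tubb3 lies below them, while the Tuba1a region holds genes of both directions.

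To set isotypes beside each other, RPKM values were used. In WT the order of mean levels was Tubb5 (764.7), Tubb4b (304.6), Tubb6 (275.5), Tuba1b (258.7), Tuba1a (227.5), Tuba1c (201.2), Tuba4a (28.6), Tubb2b (19.0), Tubb2a (18.5) and Tubb3 (14.98). Only Tubb2b and Tubb2a, next to each other in that order, overlapped in their libraries. In KO the order was Tubb5 (1121), Tuba1a (444.9), Tubb6 (342.4), Tuba1b (322.5), Tubb4b (316.0), Tuba1c (242.2), Tubb2a (37.0), Tubb2b (29.3), Tuba4a (16.0) and Tubb3 (8.53), where the libraries of Tuba1b overlapped those of both Tubb6 and Tubb4b. Tuba1a thus moved from the fifth place to the second, and Tuba4a from the seventh to the ninth. These places, like that of Tubb2a against Tubb2b, rest on the uncertain split of reads described above. The places of Tubb4b rest likewise on how reads shared with its pseudogenes were counted. By RPKM averaged over WT and KO libraries together, Tubb5 ranked 17 among all genes, and Tuba1a, Tubb4b, Tubb6, Tuba1b and Tuba1c ranked between 99 and 197.

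The make-up of the alpha-tubulin transcripts differed between the genotypes, measured as the share of each isotype in the summed RPKM of the 4 alpha genes. Tuba1a took 32.1%, 31.8% and 31.4% of it in WT and 43.0% and 43.8% in KO. As counted, it thus passed Tuba1b as the leading alpha transcript. All 4 alpha shares rest on the uncertain split of reads among Tuba1a, Tuba1b and Tuba1c and between Tuba4a and Stk16. Tuba1b took 36.1% ± 0.658 (SD, n = 3) in WT against 31.4% ± 2.01 (SD, n = 2) in KO, and Tuba1c went from 28.1% ± 0.659 to 23.6% ± 1.31. Both of these rose in level while losing share. Tuba4a dropped from 3.998% ± 0.162 to 1.56% ± 0.103. Each of these shares had groups that did not overlap, at p = 0.1 (exact permutation test, two-sided, 0.111 after adjustment over 20 quantities), the smallest value that 3 against 2 libraries can give, so the test cannot pass 0.05.

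Among the beta-tubulin transcripts, Tubb5 took 54.2%, 55.1% and 54.9% of the summed beta RPKM in WT and 59.8% and 61.1% in KO. Tubb4b, level in amount, lost share, from 21.8% ± 0.208 (SD, n = 3) to 17.0% ± 0.474 (SD, n = 2), and Tubb6 went from 19.7% ± 0.326 to 18.5% ± 0.258. The minor isotypes parted: Tubb2a went from 1.32% ± 0.0474 to 2.00% ± 0.0647 and Tubb3 from 1.07% ± 0.0496 to 0.460% ± 0.0169. In RPKM Tubb2a exceeded Tubb3 by 1.24-fold in WT and 4.34-fold in KO. Values of Tubb2a and Tubb2b rest on the uncertain split of reads between these genes. The level of Tubb4b is uncertain too, and it enters the sum behind every beta share. For Tubb2b the share was 1.36% ± 0.0975 in WT and 1.58% ± 0.0492 in KO (exact permutation test, two-sided, p = 0.2), with no overlap between the groups, and the other 5 beta shares were at p = 0.1 (exact).

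**Figure D4:**
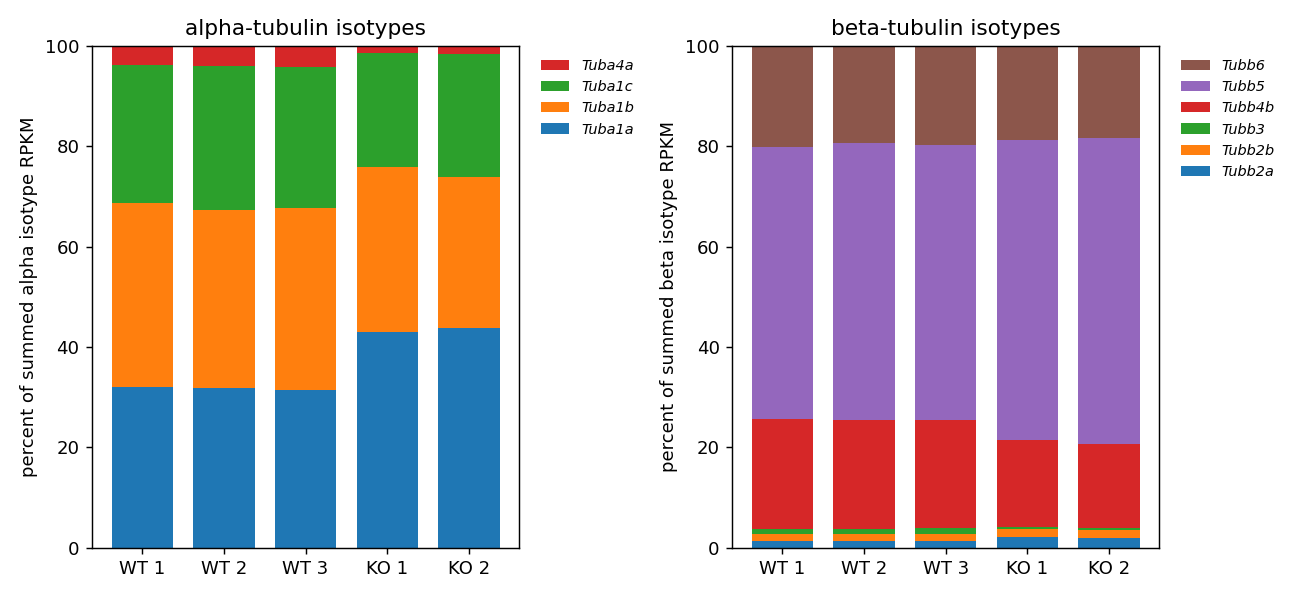
Share of each isotype (vertical axis, percent of the summed RPKM of its family) in each of the 5 libraries, alpha isotypes left and beta isotypes right, as stacked bars. Tuba1a grows from about 32% to over 42% of alpha transcripts and Tubb5 from about 55% to about 60% of beta transcripts, while Tubb4b shrinks. Alpha shares rest on an uncertain split of reads, and beta shares on a sum that holds the uncertain level of Tubb4b.

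In sum over isotypes, alpha and beta transcripts as counted rose by similar factors. Summed alpha RPKM was 737.2, 707.7 and 702.9 in WT and 1061 and 989.8 in KO, 1.43-fold higher on average. Summed beta RPKM was 1402, 1395 and 1394 in WT and 1811 and 1898 in KO, 1.33-fold higher. The ratio of alpha to beta was 0.526, 0.507 and 0.504 in WT and 0.586 and 0.522 in KO, and its groups overlapped (exact permutation test, two-sided, p = 0.2). KO replicate 1 had the higher alpha and the lower beta sum of the KO libraries. The 10 genes together made up 0.612% ± 0.0064 (SD, n = 3) of the summed RPKM of all genes in WT and 0.805% ± 0.0158 (SD, n = 2) in KO. Without Tubb5, the summed beta RPKM was still 1.16-fold higher in KO. Sums and ratios were chosen after the values of the single genes had been seen. They also rest on how reads shared with other genes, pseudogenes included, were counted. Such sharing was high in Tuba1a, Tuba1b and Tuba1c and nearly absent in Tubb5, so the alpha and beta sums may not be on the same footing.

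Of 13 genes that mark dividing cells, which need tubulin for the spindle, 9 were called higher, 1 was called lower and 3 did not pass, beside 32.6% of all genes in each direction, with a median log2 fold change of 0.21, and 6 of the 9 were also called higher with the local shift removed. Named after their values were seen, Mki67, a marker of cycling cells, was at 0.46 and Plk1, a mitotic kinase gene, at 0.41, both calls being lost with the local shift removed, while Top2a, a topoisomerase gene, was at -0.38. Of 19 neuron markers 9 were tested, and 6 were higher and 1 lower in KO, again beside 32.6% of all genes in each direction. The one lower was Stmn2, for a tubulin-binding protein of axons, at 4438 mean normalized read counts in WT and 18.3 in KO. The 6 higher are named after their values were seen. Map2 went from 1146 to 1991 mean normalized read counts, Gap43 from 121.1 to 422.7 and Uchl1 from 119.6 to 473.6. Eno2 went from 149.5 to 192.5, a call lost with the local shift removed and in several other settings. Among these were the authors' deposited comparison (DESeq2, adjusted p = 0.0916) and the replicate number as a block (limma, adjusted p = 0.116). Syp and Elavl4 were low, from 3.14 to 14.4 and from 3.78 to 19.9. The Syp call was lost with the replicate number as a block (limma, adjusted p = 0.0752). Rbfox3, Snap25 and Nefm, also named after their values were seen, were at 0 in all libraries, which allows up to 3 reads each per library. The summed normalized read counts of the neuron markers were between 5927 and 6153 in WT and between 3123 and 3232 in KO. Most of the WT sum was Stmn2: without it, a split made after the values were seen, the sum was between 1531 and 1642 in WT and between 3106 and 3213 in KO, the opposite direction. The part of either list in the isotype differences was not tested.

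The promoter table of RefSeq (GRCm38.p6) held the window from 250 bases before to 50 after the start for 8 of the 10 isotypes, all but Tubb2b and Tubb6. The windows of Tubb2a, with the largest rise, and Tubb3, which fell amid rising neighbours, are shown on the sense strand. Capitals mark matches on either strand to the searched motifs. The TATA box was searched as TATAAA. The CCAAT box was searched as its name. The GC box was searched as GGGCGG.
Tubb2a: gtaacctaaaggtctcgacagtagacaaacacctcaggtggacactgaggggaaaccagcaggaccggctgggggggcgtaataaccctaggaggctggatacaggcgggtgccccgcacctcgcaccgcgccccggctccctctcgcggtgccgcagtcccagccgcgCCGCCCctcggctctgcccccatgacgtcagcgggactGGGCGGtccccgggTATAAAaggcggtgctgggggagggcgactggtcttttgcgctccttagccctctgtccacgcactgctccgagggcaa
Tubb3: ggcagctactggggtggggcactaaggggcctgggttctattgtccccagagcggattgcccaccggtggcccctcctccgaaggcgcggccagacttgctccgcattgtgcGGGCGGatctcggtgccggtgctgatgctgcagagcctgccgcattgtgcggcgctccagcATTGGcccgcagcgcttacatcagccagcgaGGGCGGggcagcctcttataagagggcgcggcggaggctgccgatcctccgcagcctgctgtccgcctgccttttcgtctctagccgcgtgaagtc
The Tubb2a window is chr13:34077959-34078258 (minus strand) and the Tubb3 window chr8:123411303-123411602 (plus strand). A GC box match was present in 7 of the 8 windows, in all but that of Tuba1c, where 35.7% of all 32851 windows in the table hold it. CCAAT matched in 5 of 8, against 37.4% of all windows, and TATAAA in 2 of 8, those of Tubb2a and Tubb4b, against 13.6%. In Tubb2a the TATAAA match began at position -29 from the start. Isotypes that rose and isotypes that fell both held GC box matches.

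Tubulin messages are also controlled through their own product: when free tubulin is abundant, TTC5 binds the first residues of the tubulin chain as it leaves the ribosome and has the message degraded with the help of the CCR4-NOT deadenylase. The bases that encode those residues are shown here for 9 of the 10 isotypes, Tubb6 being left out, because they differ in few bases. The first 12 coding bases, with the codons after the start codon in capitals, were atgCGTGAGTGC in Tuba1a, Tuba1b and Tuba1c and atgCGCGAGTGC in Tuba4a. They were atgAGGGAAATC in Tubb5, atgAGGGAGATC in Tubb3 and Tubb4b, atgCGCGAGATC in Tubb2a and atgCGAGAGATC in Tubb2b. Ttc5 itself was lower in KO, from 859.8 to 729.9 mean normalized read counts (log2 fold change -0.24, limma, adjusted p = 0.0040), and this call was lost once neighbours were allowed for (limma, adjusted p = 0.0937). Of 11 genes of this route, 2 were higher and 4 lower in KO, beside 32.6% of all genes tested in each direction. With the local shift removed 2 were higher and 2 lower, and both fits shared 0 of the higher and 2 of the lower calls. The deadenylase gene Cnot7 was at 0.54 and the scaffold gene Cnot1 at 0.16, both lost with the local shift removed, and Cnot3 was at -0.26, lost likewise.

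In 9 lists of other microtubule genes, 98 of 118 members were tested, of which 30 (30.6%) were higher and 27 (27.6%) lower, with a median log2 fold change of -0.013. These shares are close to those of all genes tested, 32.6% in each direction. The chaperonin CCT and its partner prefoldin, which fold new tubulin, differed from the other lists in count: 11 of 14 genes were higher and 1 lower, with a median of 0.30. Cct7 was at 0.56, Tcp1 at 0.35, Cct6a at 0.31 and Cct5 at 0.31 (limma, adjusted p of 4.4e-08 for Tcp1), each also called with the local shift removed. With that shift removed, 10 of the 14 were higher, 9 of them called in both. The 3 that were not higher before that step, named after their values were seen, were the prefoldin genes Pfdn5, the one called lower, at -0.25, and Pfdn1, at 0.05, and the chaperonin gene Cct2, at -0.03. Removing the shift brought in Cct2 and took out Cct4 (limma, adjusted p = 0.551) and H2-Ke2 (adjusted p = 0.383). Pfdn2, named after its value was seen, was at 0.20 and kept its call there but lost it in several other settings. Among these were no filter (limma, adjusted p = 0.0589) and the authors' deposited comparison (DESeq2, adjusted p = 0.1). The cofactors that assemble the dimer split, with 2 higher and 3 lower of 8: Arl2, for a small GTPase that acts with them, was at 0.42, Tbcd at -0.37, Tbce at -0.34 and Tbcel at -0.26. Of these the call of Tbce held with the local shift removed.

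Among enzymes that modify tubulin, 2 of 18 tested genes were higher and 5 lower, beside 32.6% of all genes in each direction. With the local shift removed the counts were 5 and 6, and both fits shared 2 of the higher and 4 of the lower calls. Ttl, the ligase that restores the final tyrosine, was higher, from 2325 to 2681 mean normalized read counts (log2 fold change 0.21, limma, adjusted p = 9.5e-04). Vash1, for a vasohibin that removes it, was at 32.1 and 50.9 (log2 fold change 0.64, limma, adjusted p = 0.0532) and did not pass. It passed in 4 other settings: without KO replicate 2 (limma, adjusted p = 0.0156), with a pseudocount of 5 (0.0413), with the local shift removed (0.0078) and with edgeR on recovered reads of 4 libraries (0.043). Vash2, of the same family, was lower at -0.27. Svbp, the partner of both vasohibins (Ccdc23 in the table), did not pass, at -0.15 with a 95% interval from -0.42 to 0.12. Hdac6 and Sirt2, which deacetylate tubulin, fell by 0.22 and 0.21 on the log2 scale, the Sirt2 call being lost with the local shift removed. Atat1, the acetyltransferase, was at -0.12 (limma, adjusted p = 0.503), and its direction depended on the KO library left out: 0.17 without KO replicate 1 and -0.40 without KO replicate 2 (adjusted p = 0.0234). With the local shift removed it was at -0.38 and called (limma, adjusted p = 0.0372). Agbl5, which trims glutamate chains, and Ttll7, which adds them, were lower, at -0.47 and -0.29.

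Of 11 genes for proteins that bind the microtubule lattice, 4 were higher and 3 lower, shares near the 32.6% of all genes in each direction. Map1a (Mtap1a in the table) fell from 7005 to 2299 mean normalized read counts (log2 fold change -1.61, limma, adjusted p = 1.5e-18), while Map2 and Map1s (Mtap2 and Mtap1s) rose by 0.80 and 0.76. Dclk1, a doublecortin-like kinase gene, was at -0.73 and Map1b (Mtap1b) at 0.26. Plus-end proteins gave 2 higher and 3 lower of 9, with Clip2 at -0.37, Mapre3 at -0.39, Clip1 at -0.25 and Clasp1 at 0.13. The Clasp1 call was lost without KO replicate 2 and with the local shift removed. Clasp2, the other plus-end gene called higher, named after its value was seen, was at 0.12. Its call was lost in several settings, among them RPKM (limma, adjusted p = 0.0939) and the authors' deposited comparison (DESeq2, adjusted p = 0.057). With the local shift removed 3 plus-end genes were higher and 5 lower, and both fits shared 1 of the higher and 3 of the lower calls.

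Destabilizing proteins gave 5 higher and 4 lower of 13, shares near the 32.6% of all genes tested in each direction. Stmn2, which sequesters tubulin dimers, was 231-fold higher in WT, and Stmn1, its widely expressed relative, was at -0.26. The depolymerizing kinesin gene Kif2a was at -0.32, and the severing protein genes Fignl1 and Spast were at 0.52 and 0.43, the call of Spast being lost with the local shift removed. The gamma-tubulin ring, from which microtubules grow, gave 2 higher and 4 lower of 11, beside the same 32.6% in each direction. Tubg1, the main gamma-tubulin gene, was at -0.32, in a region whose median was -0.36, and it did not pass relative to that region (limma, adjusted p = 0.546). Tubgcp3 was at 0.60 amid neighbours at 0.54, Tubgcp6 at -0.31 and Cdk5rap2 at -0.26, and of these the call of Tubgcp6 held with the shift removed. Tubg2 was low, at 18.7 in WT and 8.31 in KO, with a call that was lost in 8 of the other settings, among them without WT replicate 2 (limma, adjusted p = 0.0725), WT replicate 3 (0.0602) or KO replicate 1 (0.150). Of the remaining alpha- and beta-tubulin genes, Tuba8, named after its value was seen, was at 9.54 and 14.96 mean normalized read counts and did not pass, Tubal3, Tubb1 and Tubb4a were below the filter, and Tuba3a and Tuba3b were at 0 in all libraries.

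**Figure D5:**
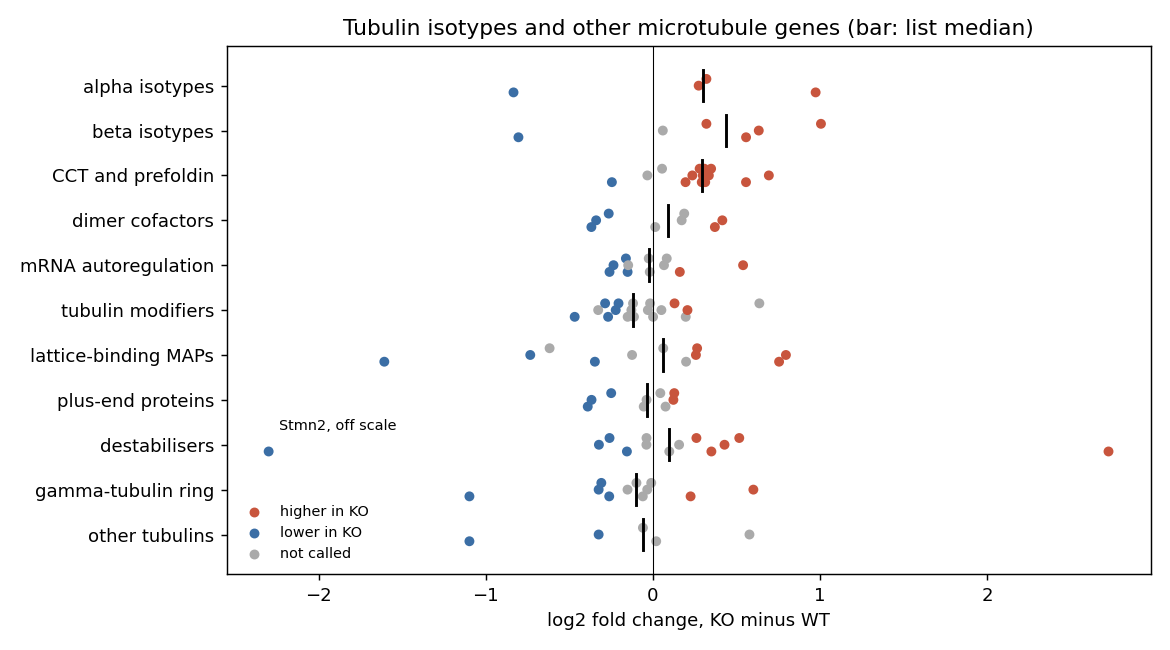
Log2 fold change between KO and WT (horizontal axis) of the tested genes of each list, red where higher, blue where lower and grey where not called, with the list's median as a black bar. Stmn2, at -7.85, is drawn at the left edge; CCT and prefoldin genes lie mostly to the right, the other lists on both sides.

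The genes whose profile over the 5 libraries was nearest to that of Tubb2a, the isotype with the largest rise, were Idi1, of isoprenoid synthesis, D19Bwg1357e and Pstk, of selenocysteine synthesis, at Euclidean distances of 0.053, 0.061 and 0.072 between centred log2 values. Nearest to Tuba4a, with the largest fall, were the formin gene Fhdc1, Figf, for a vascular growth factor, and Rgmb, for a BMP co-receptor, at 0.029, 0.037 and 0.039. The search covered 10504 genes with a mean of 100 or more, in which the 2 genotypes set most of any profile.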

How the data were processed

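The deposited signal values are counts that the authors scaled with size factors. From the values, 100% are whole reads, within 0.1, once a library's step is divided out. The authors also deposited RPKM values and, per the file headers, a DESeq2 comparison with log2 fold changes, a Wald statistic (a score), p-values and adjusted p-values. STAR, DESeq2 and the build mm10 are listed in the submitters' processing notes. Which program counted reads, on which annotation and with what strand setting, is not given in the sources used here.

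limma 3.58.1 (R 4.3.3, trended prior, two-sided, Benjamini-Hochberg) served as the test, on log2(value + 1). It covered 13062 genes that reached 10 in 2 libraries or more, genotype being the only factor. Fold changes are on that scale, which understates those of low genes. Shares used RPKM and exact permutation tests over samples. The local shift is the median log2 fold change of other tested genes within 5 Mb, subtracted from KO values and refitted. The p-values of that fit concern a difference relative to the neighbours and treat the median as known without error. Sequences came from GENCODE M21 and RefSeq. The coding ends of Tuba1a and Tuba1b are not reported here. Intervals and floors cover counting error or library spread only.

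The isotypes and lists were chosen with earlier results of these data known. All isotypes are named, and of each microtubule list up to 4 called genes with the smallest adjusted p plus 11 set genes. Symbols were matched also through RefSeq synonyms. Alternatives were TMM and median-ratio scaling, RPKM, pseudocounts of 0.5 and 5, no filter or a mean of 50, libraries left out, the replicate block, edgeR 4.0.16 and DESeq2 1.42.0 on recovered reads of 4 libraries (WT replicate 2, whose step of 0.989 is too near 1, was left out), the authors' comparison and the local shift.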

Additional observations from a re-analysis of the deposited data

How the results depend on the processing

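The count of isotypes called higher was 7 and of isotypes called lower 2 in each of the 17 other fits, replicate block included, with the exception of the local shift removed, where Tubb4b joined and 8 were higher. Requiring at least 1.5-fold as well left 3 higher, Tubb2a, Tuba1a and Tubb2b, and 2 lower, against 12.3% and 12.0% of all genes tested. Of 170 values for single isotypes under these fits, 169 kept their direction and their side of the threshold. Removing the local shift moved Tubb3 from -0.80 to -1.81, Tubb5 from 0.56 to 0.30 and Tubb6 from 0.32 to 0.21. With the replicate number as a block, 7 isotypes were higher and 2 lower. Deviations of same-numbered libraries correlated at -0.0097 for number 1 and -0.0050 for number 2. With 2 KO libraries the KO deviations mirror each other, so these values are not separate evidence. Whether the numbers pair the samples was not settled. Leaving out a library in turn gave between 28 and 32 genes higher and between 24 and 28 lower of the microtubule lists, against 30 and 27. Atat1 was at 0.17 without KO replicate 1, a reversal, and at -0.40 without KO replicate 2. In the authors' deposited table the same 9 isotypes had adjusted p-values under 0.05, from 4.5e-142 for Tuba1a to 7.7e-04 for Tuba1b, and Tubb4b had 0.127. All isotype shares kept their direction in normalized read counts and with each library left out. With 2 KO libraries, 1 of which stands alone when the other is left out, spread within KO is poorly known.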

Other observations

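The KO libraries disagreed on Tuba1b more than on most genes of its level. Among 698 genes with a mean of 10000 normalized read counts or more, the difference between the KO libraries in Tuba1b, 0.21 on the log2 scale, was the largest but 10 (rank 11), where the median gene differed by 0.056. Tuba1c, its neighbour on the chromosome, differed by 0.032 and Tuba1a by 0.054. Tubb5 differed by 0.12 in the opposite direction, with 18.5% of these genes differing more. Fign, a microtubule-severing protein gene outside the naming rule and chosen after its value was seen, was low but 6.62-fold higher in KO, from 12.1 to 81.4 mean normalized read counts (limma, adjusted p = 8.8e-07).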
